A study of Mus musculus with 8 samples.

Results

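The Rab genes encode small GTPases that direct vesicle traffic. They were taken as every protein-coding gene whose mouse symbol is Rab followed by a number and at most a letter and a further digit, which gave 59 of the 55335 genes in the table. RNA had been sequenced from RAW264.7 cells, an established mouse macrophage line, after 3 days of culture. In 4 libraries the cells had been cultured with scaffolds of hydroxyapatite carrying magnesium ions (HA/Mg), and in the other 4 with the material named Trio-Active bone scaffold (TABS). The labels describe no genetic change, no added agent, no culture without a scaffold and no composition of TABS, and all libraries come from the same cell line. Libraries are numbered 5 to 8 within each material, and values given for a gene one after another are in that order. The library names carry the letter H for TABS and L for HA/Mg, and directions rest on the sample titles.

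A Rab protein works as a switch. Bound to GTP it sits on a membrane and recruits effectors such as tethers and motors, and bound to GDP it is inactive. Exchange factors load GTP, GTPase-activating proteins of the TBC family end the active state, and escort proteins deliver each new Rab for the lipid modification that anchors it. In macrophages the early endosomal Rab5 and late endosomal Rab7 act one after the other on phagosomes as these mature into degradative compartments.

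Levels are FPKM, fragment counts scaled to transcript length and to the size of the library, and changes are TABS minus HA/Mg on log2(FPKM + 1), given with their standard error. Differences were tested with limma, a linear model whose error estimates are moderated across genes, over all 10161 genes that reached 1 FPKM in 4 or more of the 8 libraries. A gene counted as changed where its p, adjusted by the Benjamini-Hochberg method over all those genes, was under 0.05. Of the 59 Rab genes 38 passed the filter on low values. No label says whether the 4 libraries of a material are from separate cultures, so p-values measure only how far these libraries spread, and that spread may be technical. In bulk RNA fewer cells with a transcript and less of it per cell cannot be told apart.

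The libraries held 9908 to 10280 genes that reached 1 FPKM. On the first principal component over the tested genes, with 40.2% of the variance, the TABS libraries took values of 5.72 to 16.5. Of the HA/Mg libraries 3 took values of -16.4 to -12.7, while replicate 6 stood apart from its group at 2.62. Counts of changed and of non-overlapping Rab genes, and of changed partner genes, are therefore also given without it. Of all genes tested 5.07% rose with TABS. Of 8 macrophage markers 7 were tested and 2 rose, Csf1r and Cd68. Without HA/Mg replicate 6 there were 3 that rose, against 8.54% of all genes. Without HA/Mg replicate 5, 7 or 8 there was 1, where 4.22%, 4.67% and 6.83% of all genes changed in either direction. The summed level of the macrophage list was 2090 to 2456 FPKM with TABS and 1762 to 2192 FPKM with HA/Mg. Of 8 osteoclast markers 2 were tested and 1 rose, Mmp9 (144 ± 12.2 against 98.1 ± 15.8 FPKM, limma adjusted p = 0.0136), and Calcr was listed at 0. The sum of the osteoclast list was 131 to 162 FPKM with TABS and 87.3 to 123 FPKM with HA/Mg. Nearly all of it was Mmp9, at 129 to 159 FPKM and 84.7 to 121 FPKM, so the sum restates that gene. Markers of osteoblasts and fibroblasts, endothelium, epithelium, lymphocytes, and mast cells and granulocytes had no member above 0.560 FPKM in any library. The part of macrophage and osteoclast markers in the Rab differences was not tested.

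Of the 38 tested Rab genes 1 rose with TABS, against 5.07% of all genes tested, and 5 fell, against 13.1% of all genes tested. The genes that fell were Rab7, Rab5a, Rab1a, Rab2a and Rab10, and the gene that rose was Rab20. Together 6 of 38 (15.8%) changed, against 18.1% of all genes, a share near the background. The median log2 change was -0.05 for the Rab genes and -0.04 for all genes, and the median size of the change was 0.13 for both. For 10 of the 38 (26.3%) all values of one group lay above all of the other (no overlap), against 23.1% of all genes, and without HA/Mg replicate 6 this held for 17, against 44% of all genes.

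The count moved with the library left out. Without HA/Mg replicate 6 there were 14 changed Rab genes, 12 lower (against 24.1% of all genes) and 2 higher (against 8.54%), in all against 32.7%. Without HA/Mg replicate 5 or replicate 7 there were 2 each, against 4.22% and 4.67%, and without replicate 8 there were 3, against 6.83%. Without TABS replicate 5, 6, 7 or 8 there were 5, 3, 4 and 5, against 8.44%, 11.2%, 9.28% and 12.1%. With values freed, library by library, of their trends with GC content and transcript length, called GC-adjusted values, 2 Rab genes were changed, Rab7 and Rab5a, against 6.37% of all genes. With the replicate numbers added to the model, called the replicate block, 0 Rab genes were changed, against 0% of all genes. The same held for GC-adjusted values with the block.

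The split between higher and lower genes moved with the scaling. It was 2 higher and 3 lower with median-of-ratios scaling (against 18.6% of all genes changed), 2 higher and 5 lower with quantile normalization (against 19.7%), and 0 higher and 7 lower after rescaling to equal sums (against 17.7%). Array weights, which lower the influence of libraries that stand apart, gave 15 changed Rab genes, against 34.8%. Changes of the filter gave 4 of 50 Rab genes with none (against 3.53%), 8 of 30 at 5 FPKM (against 24.2%) and 8 of 38 with protein-coding genes alone (against 20%). Other pseudocounts gave 7 and 6 (against 18% and 18.1%), and fits with no mean-variance trend or with robust moderation gave 6 and 7 (against 16.9% and 18.5%).

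**Figure D1:**
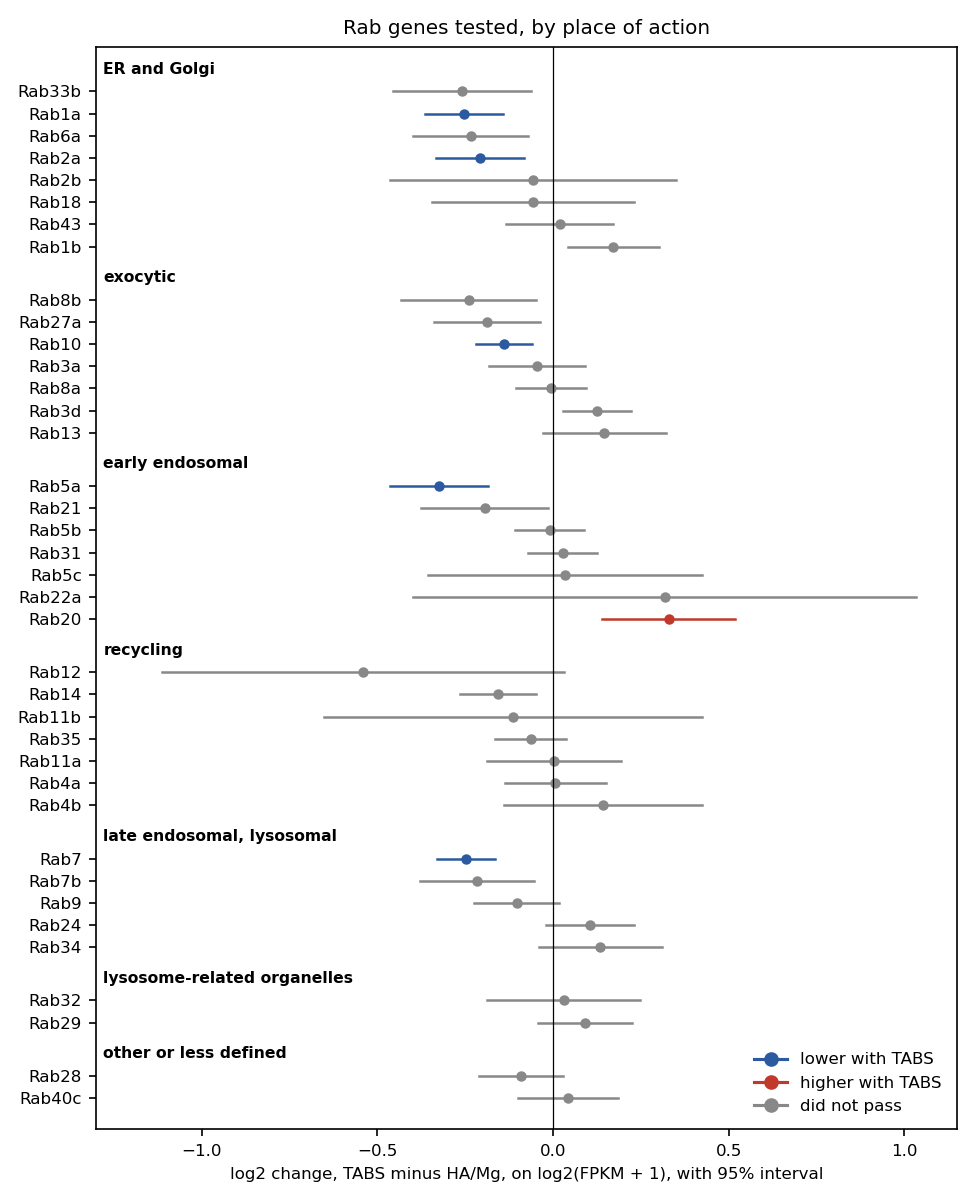
Log2 change of each of the 38 tested Rab genes (x axis, TABS minus HA/Mg on log2(FPKM + 1)), grouped by place of action (y axis), with points for the estimate and lines for its 95% interval. Rab7, Rab5a, Rab1a, Rab2a and Rab10 lie below 0 and Rab20 above 0 as changed genes, and Rab12, Rab22a and Rab11b have the widest intervals.

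The 6 changed genes lie on 6 chromosomes. On GRCm38, Rab7 (ENSMUSG00000079477) spans chr6:87999106-88045270 on the minus strand, and Rab5a (ENSMUSG00000017831) spans chr17:53479234-53507680 on the plus strand. Likewise Rab1a (ENSMUSG00000020149) spans chr11:20201432-20226856 on the plus strand, and Rab2a (ENSMUSG00000047187) spans chr4:8535644-8607778 on the plus strand. Finally Rab10 (ENSMUSG00000020671) spans chr12:3247428-3309969 on the minus strand, and Rab20 (ENSMUSG00000031504) spans chr8:11453518-11478710 on the minus strand. Values are over whole genes. Rab10 shares exon bases with the antisense gene Rab10os, which stood at 1.91 ± 0.253 FPKM with TABS against 1.80 ± 0.0930 FPKM in the other group (mean ± SD of 4 libraries, as throughout), and no source used here says whether counting took account of strand. The other 5 shared no exon base with a gene that passed the filter. Among the tested genes that were not changed, 5 share exon bases with a neighbour on the opposite strand, and reads from the shared bases cannot be told apart without strand. These are Rab24 with Prelid1 (165 ± 11.3 against 155 ± 12.5 FPKM), Rab3a with Mpv17l2 (43.6 ± 2.91 against 39.3 ± 2.22 FPKM), Rab2b with Tox4 (16.9 ± 0.506 against 16.97 ± 0.362 FPKM), Rab6a with Mrpl48 (5.82 ± 0.620 against 5.43 ± 0.581 FPKM) and Rab11b with Gm17251 (2.02 ± 0.210 against 1.65 ± 0.131 FPKM).

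Upstream DNA is shown for 5 chosen members. Rab1a, Rab5a and Rab7 are among the genes that fell, Rab20 rose, and Rab1b is the sister copy of Rab1a that did not fall. The sequences come from RefSeq on GRCm38.p6 and lie before the transcript start, without bases that GENCODE places in the gene. They are chr11:20201162-20201411 on the plus strand for Rab1a, chr19:5107073-5107246 on the minus strand for Rab1b and chr17:53478984-53479233 on the plus strand for Rab5a. For Rab7, which has 2 RefSeq starts, the window shown is chr6:88045271-88045520 on the minus strand, and for Rab20 it is chr8:11478711-11478890 on the minus strand. Each is written 5′ to 3′ on the strand of its gene, and capitals mark matches on either strand to the motifs searched.
Rab1a: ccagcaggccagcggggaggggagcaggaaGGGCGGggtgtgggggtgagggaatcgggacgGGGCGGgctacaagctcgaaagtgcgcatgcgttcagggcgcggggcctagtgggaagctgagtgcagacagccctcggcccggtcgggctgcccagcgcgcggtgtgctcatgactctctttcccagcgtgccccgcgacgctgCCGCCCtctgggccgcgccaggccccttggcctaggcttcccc
Rab1b: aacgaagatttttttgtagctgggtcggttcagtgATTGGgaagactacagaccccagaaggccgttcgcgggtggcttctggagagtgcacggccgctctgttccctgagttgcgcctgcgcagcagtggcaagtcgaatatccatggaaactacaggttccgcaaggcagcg
Rab5a: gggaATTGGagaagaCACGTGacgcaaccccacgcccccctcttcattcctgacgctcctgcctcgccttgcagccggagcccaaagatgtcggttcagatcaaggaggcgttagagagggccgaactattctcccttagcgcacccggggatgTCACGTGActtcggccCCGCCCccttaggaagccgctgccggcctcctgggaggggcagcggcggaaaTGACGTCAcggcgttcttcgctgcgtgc
Rab7: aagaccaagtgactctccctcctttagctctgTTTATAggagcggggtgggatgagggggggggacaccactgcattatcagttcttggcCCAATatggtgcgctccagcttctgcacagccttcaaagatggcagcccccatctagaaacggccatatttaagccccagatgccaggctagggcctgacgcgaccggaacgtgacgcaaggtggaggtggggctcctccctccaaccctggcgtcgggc
Rab20: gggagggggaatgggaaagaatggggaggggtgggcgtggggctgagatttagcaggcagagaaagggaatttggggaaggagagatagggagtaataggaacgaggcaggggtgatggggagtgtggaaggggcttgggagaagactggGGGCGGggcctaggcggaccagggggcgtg
The motifs were the E-box CACGTG and its longer form TCACGTGA, which overlaps it, the GC box GGGCGG, the CCAAT box, the TATA motif TATAAA, the cyclic AMP element TGACGTCA, the AP-1 motif TGANTCA, and the NF-kB and interferon consensus motifs, each on both strands. RefSeq windows of 250 bases were found for 34 of the 38 tested Rab genes (42 windows), and Rab2a was not among them. The GC box was present in 29 of the 42 windows (69.0%), against 32.7% of all 32851 windows of that length, and CCAAT in 20 (47.6%), against 33.9%. Rab1b and Rab7 are among the genes with a GC box, though none is marked above. That of Rab1b reaches into 76 bases left out above because GENCODE places them in the gene. That of Rab7 is in the window of its other RefSeq start, which is not shown. Rab10, which also fell, had both a GC box and a CCAAT box, and its upstream DNA is not shown. CACGTG was present in 4 windows (9.52%), those of Rab5a, Rab20, Rab21 and Rab27a, against 6.02%, and the match of Rab20 lies in the 70 bases left out above because GENCODE places them in the gene. TCACGTGA was present for Rab5a and Rab21 (4.76% of windows, against 0.79%) and TGACGTCA for Rab5a alone (2.38%, against 1.55%). TATAAA was present for Rab7 alone (2.38%, against 12.4%) and TGANTCA for Rab34 alone (2.38%, against 6.75%). The NF-kB motif was in 0 of 42 windows, against 0.36%, and the interferon motif in 0 of 42, against 2.98%. The Rab windows are of genes that passed the filter on low values, while the 32851 windows are of genes at any level. The sets are therefore unlike, and windows of all tested genes were not counted. All of these motifs are matches of letters in a short window and not binding sites.

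Among Rab genes of the endoplasmic reticulum and Golgi 2 of 8 tested fell, Rab1a and Rab2a, and 6 did not pass (median log2 change -0.13), against 13.1% of all genes that fell. Without HA/Mg replicate 6 the fit called 4 lower and 1 higher, against 24.1% and 8.54% of all genes. Without HA/Mg replicate 5 or 7 limma called 0, against 4.22% and 4.67% of all genes. It called 1 when HA/Mg replicate 8 or TABS replicate 6 or 7 was left out, against 6.83%, 11.2% and 9.28%. Rab1a acts in transport from the endoplasmic reticulum to the Golgi. It stood at 44.9, 46.6, 41.6 and 44.4 FPKM with TABS and 54.4, 49.6, 54.9 and 53.6 FPKM with HA/Mg. Every TABS library was below every HA/Mg library, with HA/Mg replicate 6 the nearest to TABS. The log2 change was -0.25 ± 0.05 (limma adjusted p = 0.0139), with a mean 1.197 times higher in HA/Mg. The adjusted p was 0.0524 at most with 1 library left out, and over 0.05 without HA/Mg replicate 5 or 7. Among GC-adjusted values Rab1a was at -0.088 ± 0.03 (adjusted p = 0.121).

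Rab2a acts on the same route and in keeping the Golgi in order. It stood at 42.1, 48.7, 48.4 and 50.4 FPKM with TABS and 55.5, 55.0, 55.2 and 53.4 FPKM with HA/Mg. The groups did not overlap, TABS replicate 5 was the lowest, and the HA/Mg values lay close together. Its log2 change was -0.21 ± 0.06 (limma adjusted p = 0.0357), with a mean 1.16 times higher in HA/Mg. The call ended with the loss of HA/Mg replicate 5, 7 or 8 or of TABS replicate 6 or 7 (adjusted p up to 0.0960), with median-of-ratios scaling (adjusted p = 0.113), in the unfiltered fit of 22906 genes (adjusted p = 0.0810) and among GC-adjusted values (-0.084 ± 0.05, adjusted p = 0.345).

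Rab1b is the second Rab1 gene and was the more abundant copy, at 90.1, 90.2, 97.4 and 93.0 FPKM with TABS and 81.0, 90.6, 75.5 and 82.0 FPKM with HA/Mg. HA/Mg replicate 6 overlapped TABS, and the log2 change of 0.17 ± 0.06 did not pass (limma adjusted p = 0.0639), though it did without HA/Mg replicate 6 (adjusted p = 0.0113). Summed over both copies Rab1 stood at 137 ± 1.68 FPKM with TABS and 135 ± 4.004 FPKM with HA/Mg. Rab1b made up 66.8, 66.0, 70.1 and 67.7% of that sum with TABS and 59.8, 64.7, 57.9 and 60.5% with HA/Mg. The share did not overlap between the groups while the sum did, and this is given as a description with no test. GC content differed between the copies, at 42.0% in the longest Rab1a transcript and 58.9% in that of Rab1b, and among GC-adjusted values Rab1b was at 0.070 ± 0.05 (adjusted p = 0.437).

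Over the whole coding sequence as GENCODE annotates it on GRCm38, Rab1a and Rab1b were 77.6% identical and the longest shared run was 38 bases, shorter than the 150-base reads. Among other sister copies, coding identity was 75.7% for Rab2a and Rab2b, 74.8% for Rab4a and Rab4b, 78.0% for Rab8a and Rab8b, and 75.7% for Rab11a and Rab11b, and no shared run was longer than 26 bases in these. The Rab5 copies were 74.1 to 77.7% identical, with a longest shared run of 35 bases. Sequence outside the coding parts was not compared. Whether reads from a copy were assigned to its sister was not tested.

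**Figure D2:**
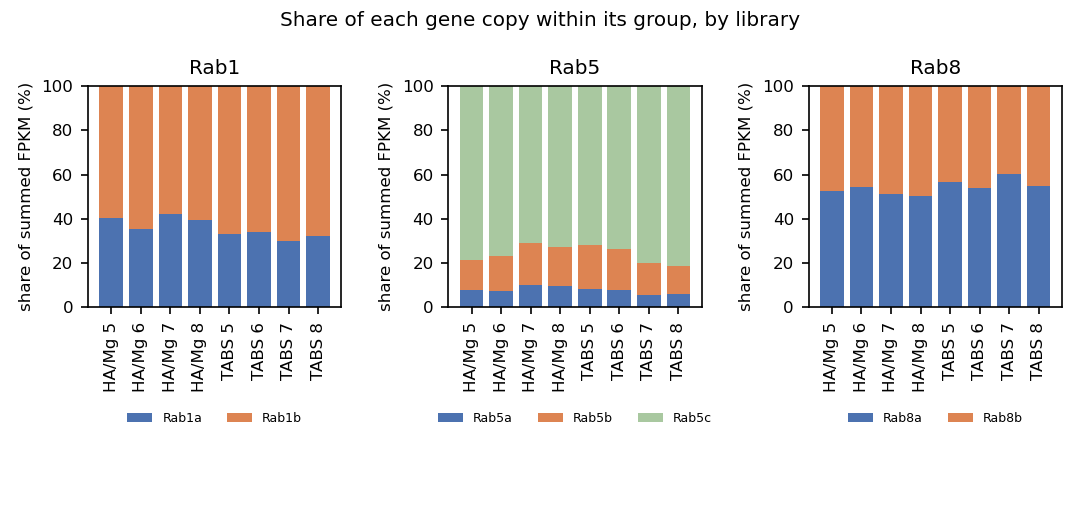
Share of the summed FPKM (y axis, percent) held by each copy of Rab1, Rab5 and Rab8 in each of the 8 libraries (x axis, 1 bar per library). Rab1b held 66.0 to 70.1% of Rab1 in TABS libraries and 57.9 to 64.7% in HA/Mg libraries, while the Rab5 and Rab8 shares overlapped between the groups.

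Rab6a, which acts in traffic from endosomes and through the Golgi, missed the threshold with groups that did not overlap (16.0 ± 1.62 against 19.0 ± 0.874 FPKM, log2 change -0.23 ± 0.07, limma adjusted p = 0.0515), but passed it without HA/Mg replicate 6 (adjusted p = 0.0365). Its sister Rab6b was listed at 0 in all libraries. Rab33b, a Golgi Rab that also takes part in autophagy, was at 2.65 ± 0.0824 against 3.39 ± 0.514 FPKM (log2 change -0.26 ± 0.09, adjusted p = 0.0667; 0.00568 without HA/Mg replicate 6). Rab43, which acts between the endoplasmic reticulum and the Golgi, stood at 3.48 ± 0.278 against 3.42 ± 0.237 FPKM, and the 95% interval of its log2 change ran from -0.13 to 0.17. Rab2b (2.14 ± 0.668 against 2.26 ± 0.635 FPKM) and Rab18, known from the endoplasmic reticulum and lipid droplets (9.08 ± 0.722 against 9.62 ± 2.16 FPKM), had wide intervals, from -0.46 to 0.35 and from -0.34 to 0.23.

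Among the exocytic Rab genes 1 of 7 tested fell, Rab10, and 6 did not pass (median log2 change -0.05), against 13.1% of all genes that fell. There were 3 that fell without HA/Mg replicate 6, against 24.1% of all genes. Rab10 carries vesicles to the plasma membrane. It stood at 46.5, 45.6, 44.0 and 45.9 FPKM with TABS and 50.1, 50.2, 50.8 and 49.9 FPKM with HA/Mg. The groups did not overlap, and the HA/Mg libraries lay within 1 FPKM of each other. The change was -0.14 ± 0.04 on the log2 scale (limma adjusted p = 0.0285), with a mean 1.10 times higher in HA/Mg. With 1 library left out the call stood in 2 of 8 fits, those that lacked HA/Mg replicate 6 or TABS replicate 5 (adjusted p from 0.0249 to 0.0887 over all 8). It ended with median-of-ratios scaling (adjusted p = 0.154) and with no mean-variance trend (adjusted p = 0.0518), and among GC-adjusted values the sign turned, to 0.0098 ± 0.04 (adjusted p = 0.907).

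The Rab8 copies serve the same route as Rab10. Rab8a stood at 17.9 ± 0.687 against 18.0 ± 0.439 FPKM, with a 95% interval of its log2 change from -0.10 to 0.093. Rab8b was at 13.9 ± 1.44 against 16.6 ± 1.62 FPKM (log2 change -0.24 ± 0.09, limma adjusted p = 0.0773; 0.0306 without HA/Mg replicate 6), and the groups overlapped. Rab27a, which docks secretory lysosomes at the cell surface, was low (1.82 ± 0.132 against 2.21 ± 0.190 FPKM, adjusted p = 0.0766; 0.0473 without HA/Mg replicate 6), with groups that did not overlap. Rab3d, a Rab of secretory granules, was the more abundant of the detected Rab3 genes, at 13.0, 12.6, 13.2 and 12.2 FPKM with TABS and 11.6, 11.7, 11.5 and 11.7 FPKM with HA/Mg. Its groups did not overlap, but its log2 change of 0.12 ± 0.04 did not pass (adjusted p = 0.0728), while with median-of-ratios scaling and quantile normalization it did (adjusted p = 0.0372 and 0.0349). Rab3a was at 2.10 ± 0.0648 against 2.20 ± 0.169 FPKM and Rab13, known from cell junctions, at 1.39 ± 0.171 against 1.16 ± 0.145 FPKM, and neither passed.

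All 7 early endosomal Rab genes were tested, and 1 fell, 1 rose and 5 did not pass (median log2 change 0.03), against 13.1% and 5.07% of all genes. Leaving out HA/Mg replicate 6 gave 2 that fell, against 24.1% of all genes, and 1 that rose, against 8.54%. Rab5a governs fusion of endocytic vesicles with early endosomes. It stood at 9.32, 9.33, 8.31 and 9.60 FPKM with TABS and 12.0, 10.7, 12.3 and 11.8 FPKM with HA/Mg. Every TABS library was below every HA/Mg library, and HA/Mg replicate 6 was again the nearest to TABS. The fitted change was -0.33 ± 0.06 on the log2 scale (limma adjusted p = 0.0136), with a mean 1.28 times higher in HA/Mg. Rab5a stayed called with each library left out in turn (adjusted p from 0.00465 to 0.04997) and among GC-adjusted values (-0.22 ± 0.04, adjusted p = 0.0309). With the replicate block Rab5a was not called (limma adjusted p = 0.0673).

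The other Rab5 copies did not pass. Rab5b was at 21.6 ± 0.750 against 21.8 ± 0.708 FPKM, with a 95% interval of its log2 change from -0.11 to 0.089. Rab5c was the most abundant Rab gene by its mean, at 80.6, 86.9, 120 and 133 FPKM with TABS and 123, 110, 84.6 and 88.9 FPKM with HA/Mg. Each group held 2 lower and 2 higher libraries with a gap between them, and the 95% interval of its log2 change ran from -0.36 to 0.42. Rab5a was the scarcest copy and made up 5.54 to 8.32% of the summed Rab5 level with TABS and 7.48 to 10.3% with HA/Mg, overlapping ranges that also move with Rab5c.

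Rab20, a Rab of phagosomes and endosomes in macrophages, was the gene that rose. It stood at 24.7, 24.7, 19.7 and 20.8 FPKM with TABS and 17.7, 15.8, 18.3 and 18.7 FPKM with HA/Mg. The groups did not overlap, and TABS replicates 5 and 6 lay above the other TABS libraries. These 2 libraries also part from TABS replicates 7 and 8 on the second principal component, with 18.3% of the variance (11.6 and 11.2 against -8.38 and -1.70), and the part of this in the Rab20 values was not tested. Rab20 rose by 0.33 ± 0.08 on the log2 scale (limma adjusted p = 0.0303), with a mean 1.27 times higher in TABS. It was no longer called with the loss of HA/Mg replicate 5, 7 or 8 or of TABS replicate 5 or 6 (adjusted p up to 0.0801), after rescaling to equal sums (0.28, adjusted p = 0.0748), in the unfiltered fit of 22906 genes (adjusted p = 0.0840) and among GC-adjusted values (0.23 ± 0.10, adjusted p = 0.157).

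Rab31, which links the Golgi with endosomes, was at 50.5 ± 1.204 against 49.5 ± 2.31 FPKM, with a 95% interval of its log2 change from -0.071 to 0.13. Rab21, known from the uptake of integrins, was at 11.3 ± 0.742 against 13.2 ± 1.48 FPKM (log2 change -0.19 ± 0.08, limma adjusted p = 0.115; 0.0249 without HA/Mg replicate 6), and among GC-adjusted values it was at -0.0019 ± 0.05. Rab22a, at the crossing of early and recycling endosomes, was at 3.04, 6.13, 5.86 and 2.44 FPKM with TABS and 2.68, 2.29, 2.14 and 6.41 FPKM with HA/Mg. Its libraries fell at a lower or a higher level, with both levels present in each group, and the 95% interval of the log2 change ran from -0.40 to 1.03.

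**Figure D3:**
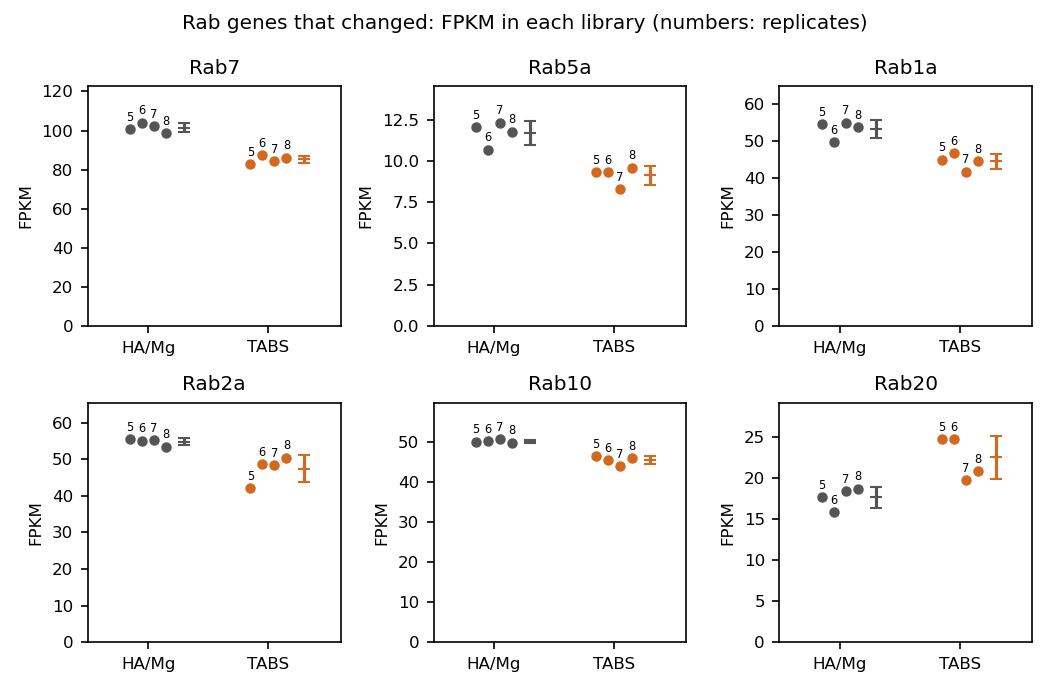
FPKM (y axis) of the 6 changed Rab genes in each library, with replicate numbers beside the points and bars for the mean ± SD of 4 libraries per group (x axis). The groups do not overlap in any of the 6 panels, and Rab20 is highest in TABS replicates 5 and 6 at 24.7 FPKM.

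Of 7 tested recycling Rab genes 0 changed by limma (1 at an unadjusted p under 0.05, median log2 change -0.06), against 18.1% of all genes, and 1 changed without HA/Mg replicate 6, against 32.7%. In both cases the gene was Rab14, which acts between the Golgi and endosomes, at 7.63, 7.82, 7.21 and 7.49 FPKM with TABS and 8.84, 8.28, 8.48 and 8.43 FPKM with HA/Mg. Its groups did not overlap, and its log2 change of -0.16 ± 0.05 missed the threshold (limma adjusted p = 0.0513; 0.0332 without HA/Mg replicate 6), but turned to 0.039 ± 0.05 among GC-adjusted values. Rab35, a Rab of fast recycling, was at 27.1 ± 0.949 against 28.3 ± 1.11 FPKM, with a 95% interval of its log2 change from -0.16 to 0.038. Rab11a, the main Rab of the recycling endosome, was at 14.4 ± 1.73 against 14.4 ± 1.07 FPKM (interval from -0.19 to 0.19). Rab11a shares exon bases with Gm47308 on the same strand, which varied widely between libraries (31.3 ± 21.1 against 10.8 ± 21.6 FPKM).

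Rab4b was far more abundant than its sister Rab4a, at 25.5 ± 2.07 against 23.3 ± 4.48 FPKM for Rab4b and 2.83 ± 0.172 against 2.82 ± 0.200 FPKM for Rab4a, both Rab genes of fast recycling. Neither passed (limma adjusted p = 0.440 and 0.949). Rab11b alternated between levels, at 5.26, 9.76, 5.20 and 9.67 FPKM with TABS and 8.53, 9.18, 5.02 and 9.45 FPKM with HA/Mg. Rab12, which acts on the sorting of receptors toward lysosomes, was at 1.81, 6.03, 4.98 and 5.49 FPKM with TABS and 6.82, 5.85, 6.55 and 7.497 FPKM with HA/Mg. TABS replicate 5 stood well under the other libraries. The log2 change of -0.54 ± 0.25 did not pass (adjusted p = 0.156) and was -0.24 ± 0.09 without that library (adjusted p = 0.110).

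**Figure D4:**
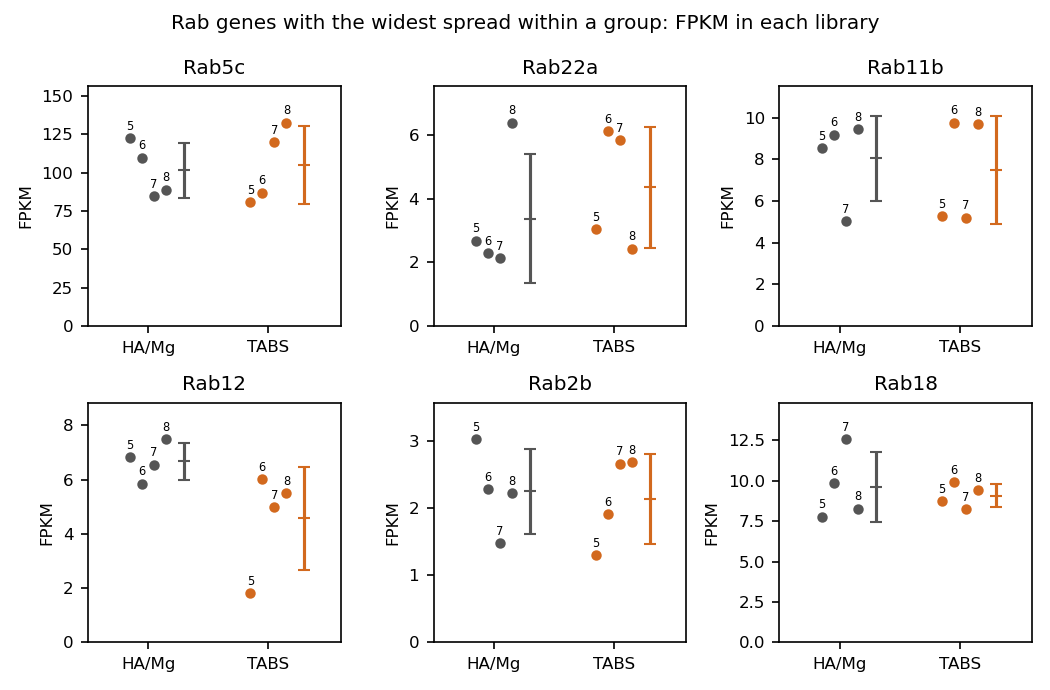
FPKM (y axis) in each library of the 6 tested Rab genes with a coefficient of variation over 20% in either group, with replicate numbers and bars for the mean ± SD of 4 libraries per group (x axis). Rab22a and Rab11b fall at 2 separate levels in each group, and Rab12 is low in TABS replicate 5 at 1.81 FPKM.

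Of 5 tested late endosomal and lysosomal Rab genes 1 fell, Rab7, and 4 did not pass (median log2 change -0.10), against 13.1% of all genes that fell. With HA/Mg replicate 6 left out 2 fell, against 24.1% of all genes. Rab7 drives the fusion of late endosomes, phagosomes and autophagosomes with lysosomes. It stood at 82.9, 87.4, 84.5 and 86.2 FPKM with TABS and 101, 104, 102 and 98.6 FPKM with HA/Mg. The gap between the groups, from 87.4 to 98.6 FPKM, was wider than the range within either, and here HA/Mg replicate 6 was the highest library. Rab7 changed by -0.25 ± 0.04 on the log2 scale (limma adjusted p = 0.00859, the smallest among the Rab genes), with a mean 1.19 times higher in HA/Mg. It stayed called with each library left out in turn (adjusted p from 0.00492 to 0.0362), with each of the 3 other scalings (adjusted p from 0.00565 to 0.0284) and among GC-adjusted values (-0.21 ± 0.04, adjusted p = 0.0271). With the replicate block Rab7 was not called (limma adjusted p = 0.0597).

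Rab7b, a distinct gene that acts between late endosomes and the Golgi and is 62.7% identical to Rab7 in coding sequence, was at 7.56 ± 0.563 against 8.94 ± 0.760 FPKM (log2 change -0.22 ± 0.07, limma adjusted p = 0.0655; 0.0208 without HA/Mg replicate 6). Rab9, which returns receptors from late endosomes to the Golgi, was at 14.6 ± 0.587 against 15.7 ± 0.956 FPKM (adjusted p = 0.196). Rab24, linked to autophagy, was at 20.4 ± 1.16 against 18.9 ± 1.0 FPKM, and Rab34, linked to the positioning of lysosomes, at 11.6 ± 0.878 against 10.5 ± 1.06 FPKM, and neither passed. Late endosomal and lysosomal genes together held 16.5 to 17.6% of the summed Rab level with TABS and 18.2 to 18.8% with HA/Mg, a share that did not overlap between the groups. Rab7 alone stood at 82.9 to 87.4 FPKM of class sums of 135 to 144 FPKM with TABS, and 98.6 to 104 of 152 to 159 FPKM with HA/Mg. The share moves with Rab7 and is no separate result for the class. Rab24 and Rab34 had higher means with TABS, Rab7b and Rab9 lower means, and none of these passed. The early endosomal share, at 25.9 to 29.2% and 24.7 to 27.3%, overlapped. So did the shares of the endoplasmic reticulum and Golgi genes (26.3 to 27.1% and 26.2 to 27.4%), exocytic genes (11.2 to 12.3% and 11.6 to 12.6%) and recycling genes (10.9 to 11.2% and 10.7 to 11.4%).

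Of the Rab genes of lysosome-related organelles Rab32 was at 13.0 ± 1.51 against 12.7 ± 1.42 FPKM and Rab29, a partner of the kinase LRRK2, at 7.37 ± 0.335 against 6.87 ± 0.462 FPKM, and neither passed. Rab38, the sister of Rab32, was listed at 0 in all libraries. Rab28, known from photoreceptors and cilia, was at 11.6 ± 0.607 against 12.4 ± 0.513 FPKM and Rab40c, part of a ubiquitin ligase, at 15.7 ± 0.834 against 15.2 ± 1.19 FPKM, and neither passed.

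In the order of mean levels over all libraries Rab5c (103 FPKM), Rab7 (93.3 FPKM) and Rab1b (87.5 FPKM) came highest, with values that overlapped from each to the next. A gap followed to Rab2a (51.1 FPKM), Rab31 (49.98 FPKM), Rab1a (48.7 FPKM) and Rab10 (47.9 FPKM), in which each overlapped the next, and then a gap to Rab35 (27.7 FPKM). From Rab35 down to Rab27a (2.01 FPKM) each gene overlapped its neighbour, and Rab13 (1.27 FPKM) was the lowest that was tested. The summed level of all Rab genes was 816 ± 28.2 FPKM with TABS and 846 ± 21.0 FPKM with HA/Mg, with overlapping ranges of 778 to 845 and 828 to 871 FPKM.

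The 21 Rab genes that did not pass the filter had little or no RNA in these cells. Rab3b, Rab3c, Rab6b, Rab9b, Rab17, Rab27b, Rab36, Rab38 and Rab40b (9 genes) were listed at 0 in every library. The other 12 were Rab15, Rab19, Rab23, Rab25, Rab26, Rab30, Rab33a, Rab37, Rab39, Rab39b, Rab42 and Rab44. Rab19 reached 1.07 FPKM in its highest library, and none of the remaining 11 exceeded 0.497 FPKM in any. Several of these are known from epithelia (Rab17 and Rab25) or neurons (Rab3b, Rab3c and Rab6b).

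Transcripts richer in G and C tended to have the higher Rab changes. Across the 38 tested Rab genes, which share the same 8 libraries and are not independent replicates, the Spearman correlation of the log2 change with GC content was 0.64, and over 10157 genes it was 0.54. Of 25 Rab genes under 50% GC 5 had a positive change, and all 5 genes that fell are among them. Of 13 at 50% or more 11 had a positive change, Rab20 among them. Among GC-adjusted values the correlation over the Rab genes was -0.0080 and their median change 0.0076. The adjustment takes out the trend over all genes, the Rab genes included, so values near 0 largely follow from it.

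**Figure D5:**
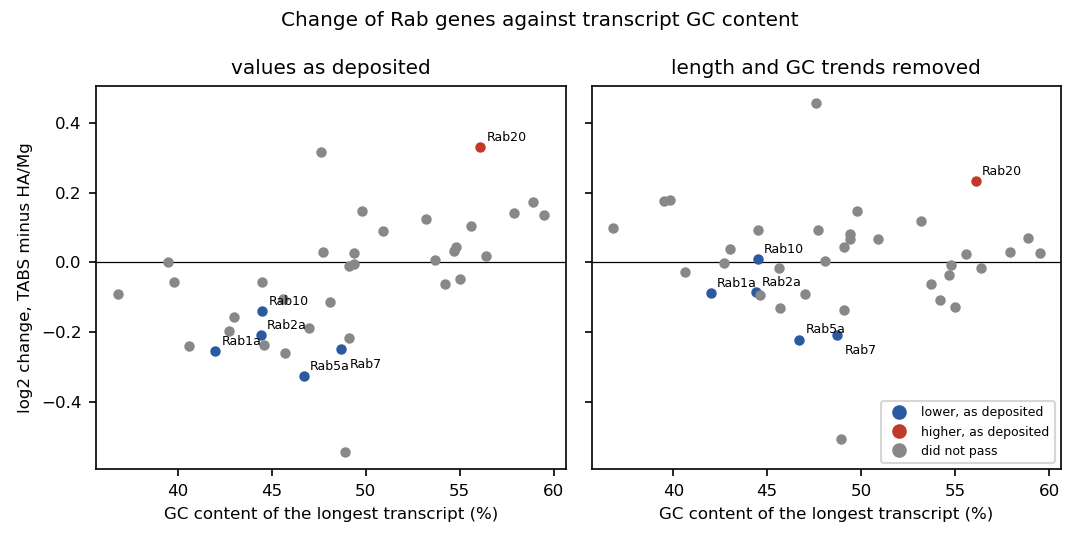
Log2 change of the 38 tested Rab genes (y axis, TABS minus HA/Mg) against the GC content of the longest transcript (x axis, percent), in the values as deposited and after removal of each library's length and GC trends, with colours for the calls in the deposited values. On removal Rab10 moves to 0.0098 and Rab7 and Rab5a stay near -0.21 and -0.22.

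Genes that serve Rab proteins were described by the kind of partner they encode. Their calls rest on the values as deposited, and no GC-adjusted values are given for them. Among those named below as lower, GC content ran from 37.0% (Chm) to 47.6% (Gapvd1), apart from Golga2 at 55.3%. Trappc4, named as higher, was at 51.3%. The part of GC content in these calls was not tested. Chm, the escort protein for new Rab proteins, fell (2.08 ± 0.167 against 2.76 ± 0.331 FPKM, log2 change -0.28 ± 0.08, limma adjusted p = 0.0402), with groups that did not overlap. It was not called in the 7 fits that left out a library other than HA/Mg replicate 6.

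Of 42 tested exchange factors 1 rose, 3 fell and 38 did not pass (9.5% changed, against 18.1% of all genes, median log2 change -0.01). The fit without HA/Mg replicate 6 called 2 higher and 10 lower, against 8.54% and 24.1% of all genes. Without any other library it called 0 to 1 higher and 0 to 1 lower, where 4.22 to 12.1% of all genes changed in either direction. Those that fell included Gapvd1, an exchange factor of Rab5 (2.94 ± 0.275 against 3.73 ± 0.346 FPKM, log2 change -0.26 ± 0.08, limma adjusted p = 0.0435), and Dennd6a, an exchange factor of Rab14 (3.28 ± 0.283 against 4.62 ± 0.491 FPKM, log2 change -0.39 ± 0.08, adjusted p = 0.0168). Sbf2 also fell (adjusted p = 0.0432), and Trappc4, a subunit of the TRAPP complexes that activate Rab1, rose (18.0 ± 0.942 against 15.6 ± 1.06 FPKM, adjusted p = 0.0496).

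Of 29 tested genes listed as GTPase-activating proteins 3 fell, 0 rose and 26 did not pass. Those that fell were 10.3%, against 13.1% of all genes, and the median log2 change was -0.02. Whether each listed protein has that activity was not checked. Without HA/Mg replicate 6 there were 8 that fell, against 24.1% of all genes. Without any other library there were 0 to 3, where 4.22 to 12.1% of all genes changed in either direction. Tbc1d15, which acts on Rab7, was at 14.98, 17.8, 12.0 and 16.2 FPKM with TABS and 21.2, 17.7, 21.0 and 20.5 FPKM with HA/Mg, with HA/Mg replicate 6 inside the TABS range (log2 change -0.39 ± 0.11, limma adjusted p = 0.0385). Tbc1d31 and Tbc1d23, a tether of endosome-derived vesicles at the Golgi, fell as well (adjusted p = 0.0189 and 0.0227).

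Of 49 tested effectors and tethers 7 fell, 0 rose and 42 did not pass (14.3% fell, against 13.1% of all genes, median log2 change -0.09). Leaving out HA/Mg replicate 6 gave 16 that fell, against 24.1% of all genes, and 1 that rose, against 8.54%. Without any other library 0 to 3 fell, where 4.22 to 12.1% of all genes changed in either direction. Uso1, the tether p115, which Rab1 recruits to Golgi membranes, was at 18.4 ± 0.738 against 22.8 ± 1.58 FPKM (log2 change -0.29 ± 0.06, limma adjusted p = 0.0143), and Golga2, the golgin GM130 and also a Rab1 partner, at 18.4 ± 0.492 against 20.9 ± 0.956 FPKM (adjusted p = 0.0362). Vps41, a subunit of the HOPS complex that tethers late endosomes to lysosomes, was at 8.35 ± 0.497 against 9.96 ± 0.581 FPKM (adjusted p = 0.0321). Exoc6, the exocyst subunit bound by Rab11, was at 14.0 ± 1.10 against 16.5 ± 0.634 FPKM (adjusted p = 0.0341). In these 4 genes, named for their small adjusted p, the groups did not overlap. Over the whole list this held for 13 of 49 tested genes, against 23.1% of all genes. Without HA/Mg replicate 6 it held for 26, against 44% of all genes.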

How the data were processed

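RNA-seq of RAW264.7 cells gave 4 libraries with TABS and 4 with HA/Mg. The authors deposited 1 table of FPKM values for 55335 Ensembl identifiers. The submitters' processing notes name fastp, STAR and DESeq2 and the build GRCm38. No source used here gives the counting tool, its annotation or its use of strand. No counts were used, and the depth is unknown: at the best-fitting step 36.2 to 39.3% of low values were whole fragments within 0.05, too few to recover reads.

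Symbols, positions, transcript length and GC content came from GENCODE M21 (55154 identifiers matched) and upstream sequences from RefSeq on GRCm38.p6. limma 3.58.1 in R 4.3.3 was fitted on log2(FPKM + 1) with a mean-variance trend, two-sided, with Benjamini-Hochberg adjustment over the 10161 genes that reached 1 FPKM in 4 or more libraries; an adjusted p under 0.05 counted as changed. Means are of FPKM, and log2 changes understate the change of low genes. On simulated data for TABS against HA/Mg (10161 genes, 50 changed at each size), the steps found 34% of those changed by 0.3 (log2), 74% at 0.5 and 96% at 1, with 9 false calls among 161.

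Every Rab gene was accounted for, and up to 4 changed members of each companion list with the smallest adjusted p were named. A result of the escort and recycling list is not reported here. Members, lists and alternatives were chosen with earlier results of these data known. Alternatives covered pseudocounts, filters, scalings, moderation, weights, the replicate block, length and GC trends (natural splines with 4 degrees of freedom), protein-coding genes alone and each library left out.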

Additional observations from a re-analysis of the deposited data

Results flagged for a closer look

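Among the 38 tested Rab genes, 76 groups of 4 libraries were examined for a library far from the others of its group, a rule by which chance flags about 1 group in 20. The rule picked out 2 values. Rab22a was at 6.41 FPKM in HA/Mg replicate 8, while the other HA/Mg libraries lay between 2.14 and 2.68 FPKM. Rab4b was at 22.5 FPKM in TABS replicate 6, while the other TABS libraries lay between 26.3 and 26.7 FPKM.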

How the results depend on the processing

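The number of changed Rab genes, 6 in the fit reported, was 15 with array weights, 2 with length and GC trends removed and 0 with the replicate block, with or without that removal (limma, with 12 Rab genes at an unadjusted p under 0.05 under the block and 2 under both). It ran from 2 to 14 with 1 library left out, and from 4 to 8 with the other alternatives. The number of changed genes in all, 1842, was 3532 with array weights, 808 with no filter on low values (22906 genes tested), 647 with the trends removed, and 0 with the replicate block, with or without that removal (2223 and 2987 at an unadjusted p under 0.05 with and without it). With 1 library left out it ran from 429 without HA/Mg replicate 5 to 3320 without HA/Mg replicate 6. Same-numbered libraries deviated together with correlations of 0.0106, -0.275, -0.16 and 0.128, and 1 of 4 TABS libraries correlated best with its own number, so the numbers were not taken as pairs. The cause of these shifts was not tested.

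Signs turned for these genes. With the trends removed, with or without the replicate block, the log2 change was 0.0098 for Rab10, 0.0053 for Rab11b, 0.039 for Rab14, 0.18 for Rab18, 0.10 for Rab28, 0.093 for Rab2b, -0.0079 for Rab40c, -0.015 for Rab43, -0.061 for Rab4a, 0.045 for Rab5b, -0.035 for Rab5c and 0.068 for Rab8a. After rescaling to equal sums it was -0.045 for Rab11a, -0.022 for Rab31, -0.016 for Rab32, -0.016 for Rab5c, -0.0041 for Rab40c, -0.020 for Rab43 and -0.031 for Rab4a. With quantile normalization it was 0.0066 for Rab18, 0.027 for Rab2b, 0.044 for Rab3a, -0.018 for Rab5c and 0.018 for Rab8a, with median-of-ratios scaling 0.044 for Rab5b and 0.048 for Rab8a, and with array weights 0.11 for Rab11b, -0.0054 for Rab32 and -0.018 for Rab4a. With 1 library left out it ran from -0.060 to 0.070 for Rab11a, -0.30 to 0.019 for Rab11b, -0.14 to 0.068 for Rab18, -0.18 to 0.085 for Rab2b, -0.046 to 0.10 for Rab32, -0.019 to 0.055 for Rab43, -0.016 to 0.039 for Rab4a, -0.026 to 0.013 for Rab5b, -0.088 to 0.15 for Rab5c and -0.025 to 0.016 for Rab8a.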
